A study of Drosophila melanogaster with 2 samples.

Results

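The genes nerfin-1, hdc and Thor, put in 1 group under the label of newborn neuron genes, are 3 of the 17473 gene rows measured in single cells from brains of Drosophila melanogaster larvae in the third instar. They were found by their exact symbols, case included, since the row hdc is headcase whereas the row Hdc is another gene, histidine decarboxylase, which had 6 UMIs in 3 MeOH cells and 9 UMIs in 4 fresh cells. UMIs are unique molecular identifiers, each marking 1 captured transcript, and levels are given as CPM, UMIs per 1000000 UMIs of the cells summed. The data were 2 droplet libraries made with 3 prime chemistry. The MeOH library held 2715 methanol-fixed cells pooled from 7 inbred lines of the DGRP panel, namely DGRP-761, DGRP-639, DGRP-502, DGRP-409, DGRP-382, DGRP-136 and DGRP-45. The fresh library held 2341 unfixed cells of a hybrid based on DGRP-551, to which the deposited cell table gives 1 genotype code. Fixation and strain changed at the same time and each group is 1 library, so no test was made between them. Methanol fixation stands in the protocol of either sample, and the groups follow the fixation label. No transgene or drug is named in the labels, and the number and sex of the animals are not given there.

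The gene nerfin-1 encodes a zinc finger transcription factor of the INSM1 family. It is transcribed in neural precursors and in nerve cells that have just left division, and it is known for its part in axon guidance in the embryo and for keeping larval neurons differentiated. Headcase, the product of hdc, marks imaginal and other adult precursor cells, binds the protein Unkempt and has been linked to insulin and TOR signalling. Thor encodes the translation inhibitor 4E-BP, which binds the cap-binding protein eIF4E until TOR phosphorylates it, and which is a target gene of the transcription factor FOXO. In the larval brain, neuroblasts divide to give ganglion mother cells (GMC), each of which divides into a pair of cells that become neurons or glia. The Notch target Hey marks newborn neurons in which Notch is active, so newborn neurons without Hey may lie in other classes.

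On dm6, the build named in the submitters' processing notes, the Ensembl annotation places nerfin-1 (FBgn0028999) on the plus strand of chromosome 3L, from 909112 to 912319, as a gene of 1 exon with 3208 bases, of which 1612 are 3' UTR. The gene hdc (FBgn0010113) spans 94451 bases on the plus strand of chromosome 3R, from 30277932 to 30372382. Its 4 transcripts have 2361 to 14807 bases and 3' UTRs of 263 to 11842 bases. Inside it lie CG34300 and lncRNA:CR46114 on the other strand and a roo transposon on the same strand, and reads shared with them cannot be told apart here because the counting rule is not given in the sources used here. Thor (FBgn0261560) lies on the plus strand of chromosome 2L, from 3478434 to 3479612, with 2 transcripts, a 3' UTR of 219 bases and no overlapping gene.

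Sequencing gave 13232791 UMIs in MeOH cells (median 3564 per cell) and 19752322 in fresh cells (median 6598). Cells had 2018 or more UMIs, so every cell could be thinned to 2000 UMIs when shares of cells were compared. The 7 lines had 210 to 580 cells each. Of the barcode sequences, 11 occurred in both libraries. Cell types follow the deposited names, and clusters with a number only were called neurons by 11 fixed markers. This gave 1749 MeOH and 1724 fresh neurons apart from the cells named Hey+ Neurons, of which there were 36 and 69. The cells named G-KC, with clusters 33 and 3, in all 231 MeOH and 186 fresh cells, had raised synaptic markers and are called mature-like. The remaining 1518 and 1538 are called other neurons. Cluster 1, with 397 MeOH and 13 fresh cells, and cluster 31, with 17 and 14, reached 9 and 6 of the 11 markers and so met the neuronal rule. They were still left unnamed and out of the neurons, a choice made after seeing the data. The names were set against their markers. Hey had 381 CPM in the MeOH and 691 CPM in the fresh cells named Hey+, against 8.12 and 7.59 CPM in the other nerve cells. The 7 neuroblast markers summed to 1340 and 1527 CPM in neuroblasts, and the 3 fat body markers were at 0 in both. The 4 GMC markers did not single out GMC, since they summed to 2584 and 1607 CPM there, against 16287 and 10728 CPM in neurons, nearly all of it pros. With pros set aside, a choice made after its values were seen, tap, dap and ase summed to 889.9 and 1236 CPM in GMC, against 43.5 and 30.3 CPM in neurons. The cells named SUR had 175 and 1113 CPM of the 4 hemocyte markers, and their part in the SUR values was not tested.

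Judged by the cells named Hey+ Neurons, which need not hold all newborn neurons, the joint label fitted only nerfin-1. Its highest level was in the cells named Hey+ Neurons and its next in GMC. The gene hdc was found in nearly every nerve cell and had its highest level in numbered neuronal clusters, not in Hey+ cells. Thor transcripts were rare in every class. The genes are therefore described one by one, by their own names. Since the classes were made from the same cells and the genes were chosen with earlier results known, levels by class are given as a description, with no test.

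**Figure D1:**
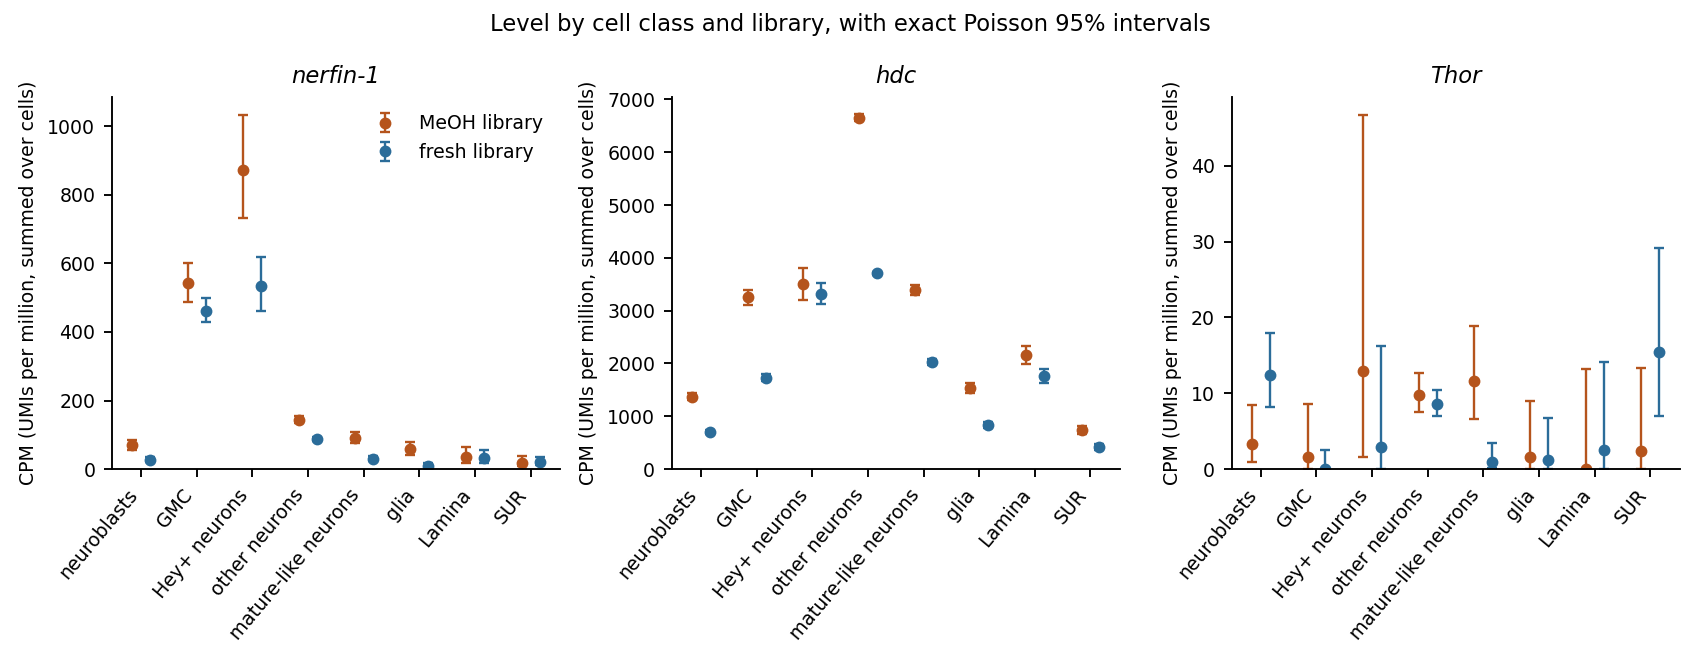
Level of nerfin-1, hdc and Thor in CPM on the y axis for 8 cell classes on the x axis, with the MeOH library left of the fresh library in each class; points are summed UMIs and bars exact Poisson 95% intervals. The gene nerfin-1 peaked in Hey+ neurons at 872 and 535 CPM, hdc in other neurons at 6653 and 3705 CPM, and the Thor intervals overlapped between most classes.

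The gene nerfin-1 had 2393 UMIs in 1033 MeOH cells and 2045 UMIs in 893 fresh cells. Hey+ neurons had 872 CPM (exact Poisson 95% interval 731 to 1032) in MeOH and 535 CPM (460 to 618) in fresh cells. GMC followed with 543 CPM (487 to 602) and 462 CPM (428 to 498). The MeOH interval of Hey+ neurons lay above that of all GMC but overlapped with that of the cells named OL GMC (571 to 754). The fresh intervals of Hey+ neurons and GMC overlapped. Neurons had 134 CPM (126 to 143) in the MeOH and 78.7 CPM (74.0 to 83.5) in the fresh library. Neuroblasts, the stem cells from which GMC arise, had 69.8 CPM (55.7 to 86.4) and 26.6 CPM (20.2 to 34.3). Glia had 57.7 CPM (40.4 to 79.8) and 9.64 CPM (4.16 to 19.0).

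The cells named OL GMC had 658 CPM of nerfin-1 in the MeOH library and 524 CPM in the fresh library, against 436 and 356 CPM in those named CB GMC. Neuroblasts also differed by type. The cells named OL Type I NB had 169 CPM (134 to 211) in the MeOH library, above the 25.3 CPM (5.22 to 73.9) of the 16 cells named CB Type I NB and the 4.80 CPM (0.990 to 14.0) of Type II NB. In the fresh library these 3 neuroblast types had 39.4, 44.7 and 8.52 CPM, and the first of them no longer stood above the second. Type II neuroblasts, which give rise to intermediate progenitors rather than to GMC directly, were the lowest annotation value with at least 20 cells in the MeOH library. By the same limit the glial cells named ENS, with 6.02 CPM, were lowest in the fresh one. All these intervals cover counting error only.

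Among numbered neuronal clusters with at least 20 cells, nerfin-1 was highest in cluster 4, at 493 CPM in MeOH cells (432 to 560) and 277 CPM in fresh cells (242 to 316). Cluster 9 had 365 and 218 CPM, and cluster 23 had 346 and 175 CPM. Most other neuronal clusters lay far lower, down to 30.3 CPM in cluster 25 of the MeOH library and 23.1 CPM in cluster 22 of the fresh library. The unnamed cluster 1, at 322 CPM (299.9 to 346) in the MeOH library, held 32.0% of all nerfin-1 UMIs of that library in 14.6% of its cells. Ordered by level, the MeOH library had 30 annotation values of at least 20 cells, and 28 of the 29 neighbouring pairs had overlapping intervals. In the fresh library 26 of 27 pairs overlapped, so the order was resolved over wide steps only. Over the 27 values present in both libraries the Spearman correlation of the levels was 0.86, given as a description since the libraries share the clustering.

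At 2000 UMIs per cell, 66.7% of MeOH Hey+ neurons (exact Clopper-Pearson 95% interval 49.0 to 81.4) and 56.5% of fresh ones (44.0 to 68.4) had a nerfin-1 UMI. In GMC the shares were 67.6% (60.1 to 74.6) and 54.6% (47.7 to 61.3), so these classes did not differ in this share beyond counting error. Of neurons, 19.7% (17.8 to 21.6) in the MeOH and 13.9% (12.3 to 15.6) in the fresh library had one. Without thinning the neuronal shares were 30.2% at a median of 3333 UMIs and 34.6% at a median of 6560.5 UMIs, so the order of the libraries differed from that at equal depth. Glia, which should lack the gene, had a nerfin-1 UMI in 7.77% of MeOH cells (3.41 to 14.7) and 2.60% of fresh cells (0.316 to 9.07) at 2000 UMIs. Neuronal shares thus exceeded the level seen in glia, whereas the 13.5% of MeOH neuroblasts (8.22 to 20.5) and 6.29% of fresh neuroblasts (2.92 to 11.6) did not exceed it beyond counting error. Among neuroblasts, OL Type I NB stood above MeOH glia, at 27.7% of MeOH cells (17.3 to 40.2), while 10.98% of fresh cells (5.14 to 19.8) had one, an interval that overlapped with that of fresh glia.

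The gene hdc was among the commonly detected ones, with 63972 UMIs in 2673 MeOH cells and 54100 UMIs in 2305 fresh cells. Other neurons were the highest class, at 6653 CPM (6588 to 6718) in the MeOH and 3705 CPM (3670 to 3741) in the fresh library. Hey+ neurons had 3496 CPM (3207 to 3803) and 3323 CPM (3134 to 3522). GMC had 3252 CPM (3115 to 3394) and 1733 CPM (1666 to 1801), and mature-like neurons 3396 and 2031 CPM. In the MeOH library Hey+ neurons, GMC and mature-like neurons overlapped in their intervals, and in the fresh library Hey+ neurons lay above both others.

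Dividing stem cells and glia had less hdc. Neuroblasts had 1366 CPM (1300.3 to 1433) in the MeOH and 697 CPM (662 to 733) in the fresh library. Glia had 1533 CPM (1437 to 1633) and 834 CPM (773 to 898). Within glia, the cells named ENS had 2809 and 1367 CPM, against 985 and 330 CPM in those named CTX. The cells named SUR had 737 and 415 CPM. In the MeOH library SUR was the lowest annotation value with at least 20 cells, and in the fresh library CTX was.

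Cluster 9 had the highest hdc level among annotation values with at least 20 cells, with 9295 CPM (8972 to 9626) in the MeOH and 5341 CPM (5124 to 5565) in the fresh library. Cluster 18 had 9081 and 4105 CPM and overlapped with cluster 9 only in the MeOH library. Of neighbouring pairs in the order, 22 of 29 overlapped in the MeOH library and 17 of 27 in the fresh library, and the levels of the 27 shared values had a Spearman correlation of 0.89 between libraries. Clusters with the same hdc level could differ widely in nerfin-1. Cluster 4 and cluster 22 had 6433 and 6373 CPM of hdc in the MeOH library, but 493 and 64.0 CPM of nerfin-1. In OL GMC of the MeOH library, the level of nerfin-1 was 658 CPM where hdc was at 2784 CPM.

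**Figure D2:**
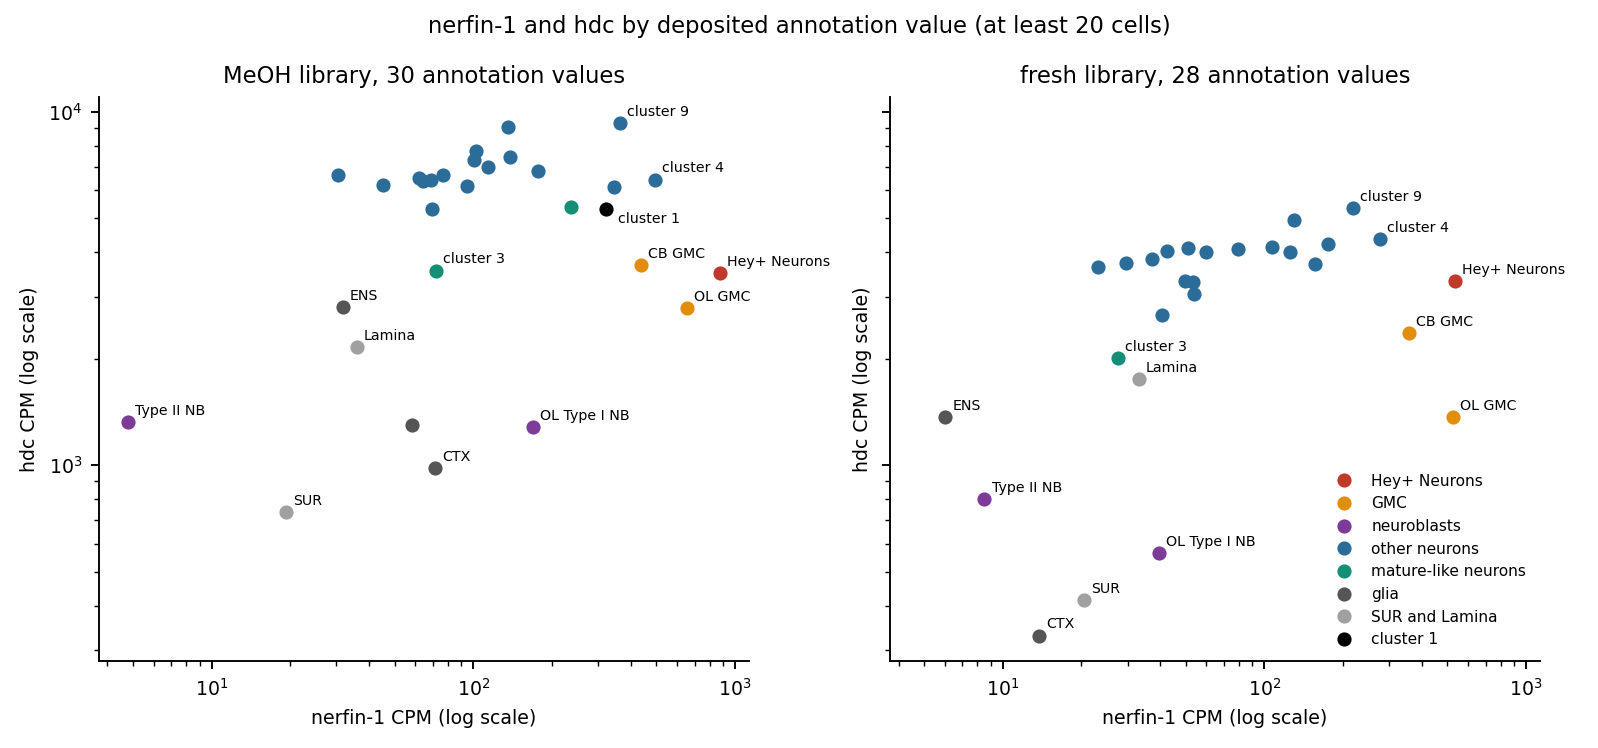
Each point is a deposited annotation value with at least 20 cells, placed by its nerfin-1 level on the x axis and its hdc level on the y axis, both in CPM on log scales, in the MeOH library on the left and the fresh library on the right. Hey+ Neurons lie farthest right at 872 and 535 CPM of nerfin-1, while the highest points belong to numbered neuronal clusters, led by cluster 9 at 9295 and 5341 CPM of hdc.

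Per cell, hdc was spread over most nerve cells rather than held in a few. At 2000 UMIs, MeOH neurons had a median of 12 hdc UMIs, with 5 at the 10th and 21 at the 90th percentile. Fresh neurons had a median of 7, with 3 and 13 at these percentiles. An hdc UMI was present in 98.4% of MeOH neurons (97.7 to 98.9) and 97.2% of fresh neurons (96.3 to 97.9). Glia reached 74.8% (65.2 to 82.8) and 71.4% (60.0 to 81.2), and SUR cells 50.7% and 44.7%. How much of the signal outside neurons came from RNA free in the droplets was not tested. By contrast, nerfin-1 had a median of 0 UMIs in neurons of both libraries and of 1 in Hey+ neurons and in GMC, with at most 8 in any neuron.

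Thor had 103 UMIs in 83 MeOH cells and 141 UMIs in 83 fresh cells. Of these cells, 70 in the MeOH and 67 in the fresh library had 1 UMI only, and 5 and 8 cells had 3 or more. Neurons had 10.2 CPM (7.99 to 12.7) in the MeOH and 7.44 CPM (6.06 to 9.04) in the fresh library. GMC had 1 UMI in 170 MeOH cells, or 1.54 CPM (0.0389 to 8.56), and none in 218 fresh cells, where 3 counts would give 2.03 CPM. Hey+ neurons had 2 UMIs in the MeOH and 1 UMI in the fresh library, too few to place them against other neurons. At 2000 UMIs, a Thor UMI was seen in 1.89% of MeOH neurons (1.30 to 2.64) and in 0.971% of MeOH glia (0.0246 to 5.29). The fresh shares were 1.16% of neurons (0.71 to 1.79) and 0 of 77 glia (0 to 4.68). At this depth the neuronal share of Thor could not be told from the share in glia.

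In the fresh library a few cells carried much of the Thor signal, and 67 of 141 Thor UMIs were the only one of their cell. In the MeOH library 70 of 103 were, while the number of cells with Thor was 83 in either library. A fresh Type II neuroblast with 34891 UMIs held 26 of the 27 Thor UMIs of fresh neuroblasts, so the fresh neuroblast level of 12.4 CPM rested on that cell. The next highest fresh cell, in cluster 2, had 7 Thor UMIs among 8644. In the MeOH library the highest cell, of DGRP-502 and in cluster 3, had 5 among 2333. Cluster 30, a small neuronal cluster of 16 MeOH and 18 fresh cells, had 20.1 and 43.2 CPM, and 9 of its 14 fresh Thor UMIs came from 2 cells, with 6 and 3 each. The cells named SUR had 2.40 CPM from 1 UMI in the MeOH and 15.4 CPM from 9 UMIs in the fresh library, of which 8 came from 2 cells. Thor levels of the 27 shared annotation values had a Spearman correlation of 0.32 between libraries, and in such sparse counts this is not a finding.

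The lines of the MeOH library gave 7 values from 1 preparation. In neurons, nerfin-1 ranged between 85.2 CPM in DGRP-409 and 207 CPM in DGRP-502 with a median of 134, against 78.7 CPM in the fresh library. The mean was 136 ± 36.7 CPM (SD, n = 7 lines), and the variance over lines was 9.08 times that of counting alone. Counting alone leaves out the spread between the cells of a line and their mix of clusters, whose part in this ratio was not tested. All 7 lines lay above the fresh library. In GMC the lines averaged 545 ± 118 CPM, with DGRP-639 lowest at 328, DGRP-761 highest at 729 and a median of 550, and 6 of 7 were above the 462 CPM of the fresh library.

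In neurons hdc ranged between 5329 CPM in DGRP-382 and 6623 CPM in DGRP-45 with a median of 6101, against 3447 CPM in the fresh library. The mean was 5980 ± 555 CPM (SD, n = 7 lines), and the variance over lines was 48.6 times that of counting alone. Every line was above the fresh library. In GMC the lines were wider apart, at 3297 ± 1198 CPM, with 1469 in DGRP-639, 5144 in DGRP-409 and a median of 3249. In mature-like neurons hdc was 6747 CPM in DGRP-45, against 2664 to 3635 CPM in the other 6 lines. The DGRP-45 value came from 10 cells, the fewest allowed, against 18 to 55 cells in the others. Thor in neurons was 9.67 ± 4.27 CPM over lines, between 2.01 in DGRP-382 and 16.5 in DGRP-502 with a median of 10.1, and 6 of 7 were above the 7.44 CPM of the fresh library.

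**Figure D3:**
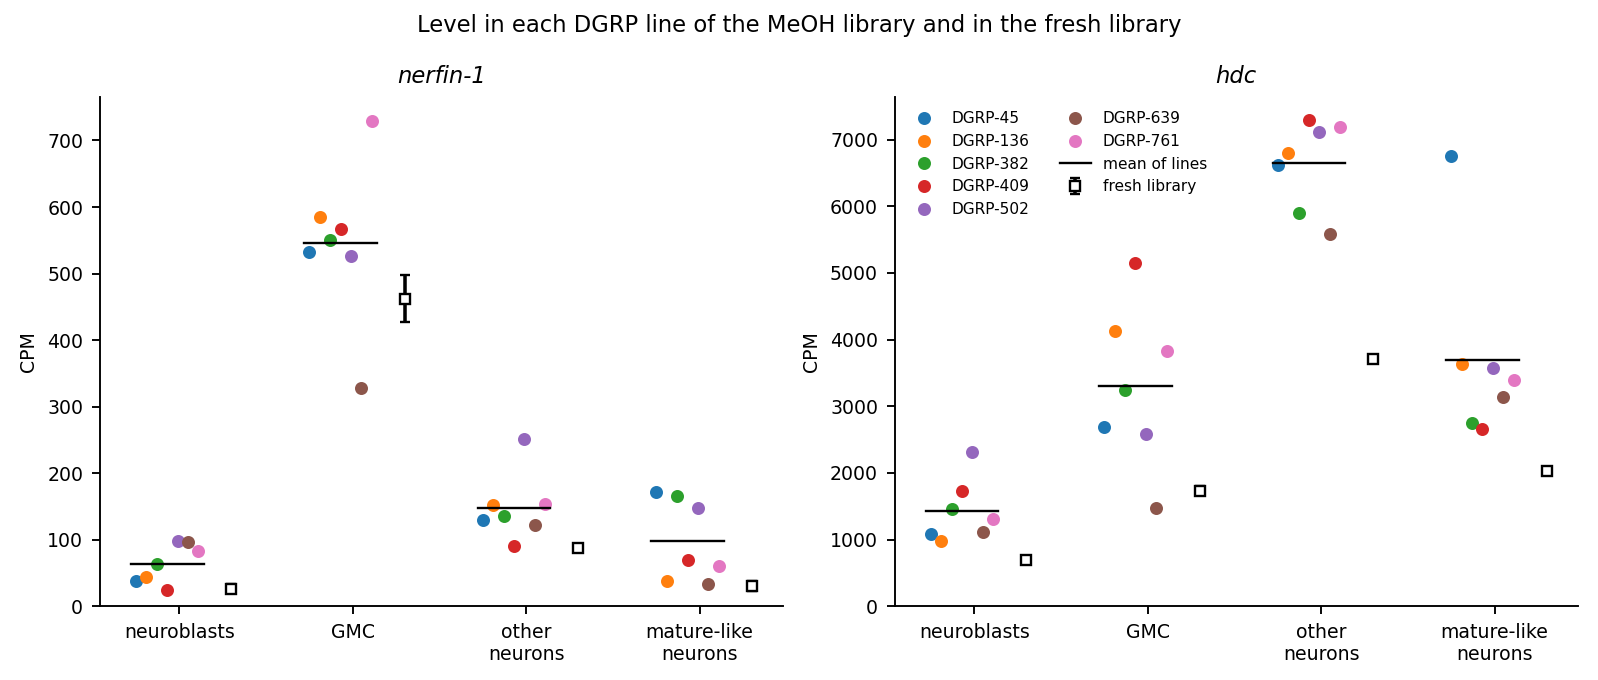
Level in CPM on the y axis of nerfin-1 on the left and hdc on the right for 4 cell classes on the x axis; coloured points are the 7 DGRP lines of the MeOH library, the bar is their mean and the open square is the fresh library with its Poisson 95% interval. In other neurons DGRP-502 has 251 CPM of nerfin-1 and lies apart from the other lines. In mature-like neurons DGRP-45 has 6747 CPM of hdc, from 10 cells.

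Most class differences of nerfin-1 and hdc had the same direction in each line. On the scale of log2(CPM + 10), nerfin-1 in GMC exceeded that in neurons by 1.93 ± 0.45 (SD, n = 7 lines) and that in neuroblasts by 2.98 ± 0.80, each in 7 of 7 lines. The fresh differences were 2.41 and 3.69. Neurons exceeded neuroblasts in nerfin-1 by 1.05 ± 0.49 in 7 of 7 lines and by 1.28 in the fresh library. For hdc the order of GMC and neurons was the opposite one. GMC minus neurons was -0.94 ± 0.53, negative in 7 of 7 lines, and -0.99 in the fresh library. Neurons exceeded neuroblasts in hdc by 2.11 ± 0.50 in 7 of 7 lines and by 2.29 in the fresh library. Other neurons exceeded mature-like neurons in hdc by 0.90 ± 0.46 in 6 of 7 lines and by 0.86 in the fresh library. For nerfin-1 that difference was 0.71 ± 0.86, in 5 of 7 lines, and did not exceed the spread between lines. In the fresh library it was 1.28. There other neurons had 87.5 CPM of nerfin-1 (82.2 to 93.1) and mature-like neurons 30.1 CPM (23.1 to 38.5).

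Between the libraries, hdc and nerfin-1 were higher in MeOH cells and Thor differed less. In neurons the log2 ratio of MeOH over fresh, on log2(CPM + 10), was 0.81 for hdc, 0.70 for nerfin-1 and 0.21 for Thor, so 2 of the 3 exceeded 0.5. Of 7187 genes with at least 50 UMIs in neurons of the 2 libraries together, 11.2% were higher in MeOH neurons by more than 0.5 and 6.68% lower, so differences past 0.5 were not rare. By this ratio 95.8% of the 7187 genes lay below hdc, 93.7% below nerfin-1 and 75.2% below Thor. Over the 27 shared annotation values hdc was higher in the MeOH library in 27, nerfin-1 in 23 and Thor in 13. Hey+ neurons were an exception for hdc, with a log2 ratio of 0.07, and Lamina cells had 0.30, while the ratio in GMC was 0.90 and in neuroblasts 0.96. In GMC the log2 ratio of nerfin-1 was 0.23, where the median of all genes was -0.12.

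Depth moved with these levels. When other neurons of each library were put into 4 bins of equal size by their UMI total, hdc was lower in each deeper bin, at 7909, 7123, 6448 and 6157 CPM in MeOH cells, and at 4581, 4331, 3554 and 3209 CPM in fresh cells. The gene nerfin-1 was high in the shallowest bin only, at 229 CPM against 122 to 136 CPM in the other 3 bins of MeOH cells, and at 193 CPM against 68.4 to 73.8 CPM in those of fresh cells. The deepest MeOH bin and the second fresh bin had close medians, 5684 and 5735.5 UMIs per cell. There hdc was 6157 CPM (6063 to 6252) in MeOH and 4331 CPM (4244 to 4419) in fresh cells, and nerfin-1 was 136 CPM (122 to 150.4) in MeOH and 73.8 CPM (62.9 to 86.1) in fresh cells, so either gene was higher in MeOH cells in this pair. The part of depth, strain and fixation in the differences between libraries was not tested, and strain and fixation cannot be told apart.

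The next question was which other transcripts accompany nerfin-1 within neurons. Neurons at 2000 UMIs were split in each line into those with a nerfin-1 UMI, 29 to 75 cells, and those without, 112 to 287 cells. UMIs were summed per line and side and tested with edgeR's quasi-likelihood test with the line as a block. The lines come from 1 preparation, so p-values measure the spread between lines and not between preparations. Log2 differences of named genes are those of the fit unless a line or the fresh library is named, and the SE beside them is that of the 7 lines' own differences on log2(CPM + 10). Of 2423 genes tested, 168 or 6.93% passed a Benjamini-Hochberg adjusted p of 0.05. Of these, 74 (3.05%) were higher and 94 (3.88%) lower in neurons with a nerfin-1 UMI. In the fresh library, which was not part of the fit, 90.5% of the higher and 97.9% of the lower genes had the same sign, against 64.5% of the genes that did not pass.

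Of the 8 named genes that rose most with nerfin-1, 4 are long noncoding RNAs and 3 encode transcription factors. CR43283, also called cherub, a long noncoding RNA, averaged 6601 ± 2500.0 CPM in neurons with a nerfin-1 UMI and 2245 ± 687 CPM in neurons without (SD, n = 7 lines), a log2 difference of 1.52 (SE 0.27, edgeR adjusted p = 1.8e-08). The homeobox gene hbn averaged 241 ± 118 CPM with and 76.7 ± 44.8 CPM without, a log2 difference of 1.59 (SE 0.28, edgeR adjusted p = 7.3e-06). Its rise was between 0.97 and 1.73 in 6 lines and 3.12 in DGRP-409. CR46006, a long noncoding RNA that in the gene table is the primary transcript of mir-276a and mir-276b, averaged 976 ± 170 CPM with and 399 ± 129 CPM without. The homeobox gene scro averaged 211 ± 40.9 CPM with and 95.9 ± 42.4 CPM without. The other named genes with the largest rises were the noncoding CR46004 and CR44272, the JNK phosphatase gene puc and CG9650, now called Cph, a zinc finger gene of the Bcl11 family. Their log2 differences were between 0.81 and 1.60, each positive in 7 of 7 lines, and their edgeR adjusted p lay between 2.9e-06 and 0.022.

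The 8 named genes that fell most included a potassium channel subunit and a synaptic SNARE. Hk, the beta subunit of a potassium channel, averaged 57.4 ± 20.2 CPM in neurons with a nerfin-1 UMI and 116 ± 21.7 CPM in neurons without, a log2 difference of -1.03 (SE 0.19, edgeR adjusted p = 0.0042). Snap25, part of the SNARE complex that fuses synaptic vesicles, averaged 73.4 ± 32.3 CPM with and 149 ± 19.4 CPM without, a log2 difference of -0.95 (SE 0.32, edgeR adjusted p = 0.0038). Mp, which encodes a collagen of the multiplexin type, averaged 43.6 ± 15.1 CPM with and 85.2 ± 22.8 CPM without. CG42541, CG34354, CG42540, CG42265 and Snp had log2 differences between -1.24 and -0.93, each negative in 7 of 7 lines by the rule for naming. Of these 16 named genes, 7 could be tested with cells matched on line and cluster and only Snp passed there, and 4 of the 14 tested at 3300 UMIs per cell passed.

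Over all 2423 genes tested, 3.05% rose and 3.88% fell with nerfin-1. Of 20 tested genes of the mature neuron and synapse list, 0 rose and 6 fell with nerfin-1, with a median log2 difference of -0.26, against 0.01 over all 2423 genes. Those that fell were Snap25, unc-13, Rim and Syn, which act in vesicle release, the GABA receptor gene Rdl, and IA-2, a protein of dense core vesicles. The split neurons included the mature-like clusters, which were set apart by 6 genes of this list. Those clusters had less nerfin-1 than other neurons, at 91.4 against 144 CPM in the MeOH library. In other neurons only, 133 of 2177 genes passed with nerfin-1. With cells matched on line and cluster, which leaves fewer cells, 3 of 1261 passed. The list was counted in neither setting, so the part of the cluster mix in these falls was not tested. Of 12 genes of the immature neuron list, 2 rose and 2 fell, with a median of 0.02. Nrt, a cell surface protein of growing axons, rose by 0.53 (SE 0.09, edgeR adjusted p = 0.00015), and CG9650 rose as given above. The homeobox gene pros, whose protein enters the nucleus of GMC and ends their division, averaged 13304 ± 3294 CPM with and 22648 ± 5424 CPM without, and fell by 0.76 (SE 0.22, edgeR adjusted p = 6e-05). The zinc finger gene jim fell by 0.45. Both fell in 7 of 7 lines and were lower in the fresh library.

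The counts of the further lists stand beside the same shares of all genes, 3.05% higher and 3.88% lower, and no list was tested against them. Of 15 genes of axon growth and guidance, Dscam2 and Fas3 rose and Toll-6 fell. Of 9 heat shock genes, Hsp26 and Hsp83 rose and Hsp23 fell. Of 3 tested cell cycle genes the histone gene His2Av rose by 0.51 (SE 0.08, edgeR adjusted p = 0.00084). No gene passed among 14 of the TOR, insulin, FOXO and 4E list, 3 headcase partners, 4 genes reported to depend on nerfin-1 in the embryo, 2 of the Notch pathway and 2 of transmitter identity. Nor did the single genes tested from the neuroblast, mushroom body and lamina lists pass, and the single gene tested of the GMC list was pros. The glia, hemocyte, fat body and muscle lists had no gene abundant enough to test. The summed level of the 12 glial genes was 51.8 to 188 CPM over lines in neurons with a nerfin-1 UMI and 69.3 to 155 CPM in neurons without, and the fat body genes were at 0 in both.

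**Figure D4:**
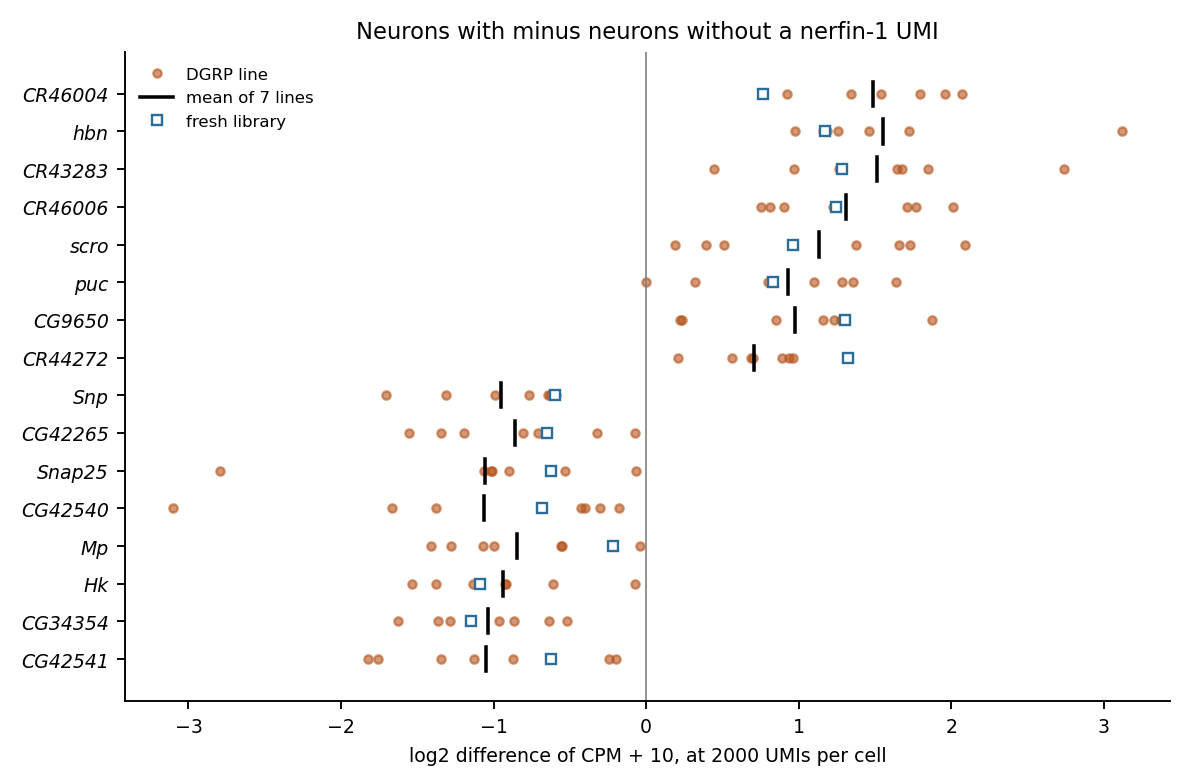
Log2 difference of CPM + 10 between neurons with and neurons without a nerfin-1 UMI at 2000 UMIs per cell on the x axis, for the 8 named genes that rose above the 8 that fell on the y axis; dots are the 7 DGRP lines, bars their mean and open squares the fresh library. By the rule for naming, every dot lies on the side of its gene's direction, puc in DGRP-136 barely so at 0.0016. The dots of hbn at 3.12 in DGRP-409 and Snap25 at -2.79 in DGRP-382 lie apart from the other lines.

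Neither of the other genes of the trio passed with nerfin-1. The gene hdc averaged 6887 ± 692 CPM in neurons with a nerfin-1 UMI and 6214 ± 518 CPM in neurons without (SD, n = 7 lines). The log2 difference was 0.15 (SE 0.05, edgeR adjusted p = 0.074), positive in 6 of 7 lines, and the fresh library had 0.22. Without DGRP-382 the edgeR adjusted p was 0.023 and without DGRP-45 it was 0.029, and over all settings tried it ranged between 0.023 and 0.98. Thor was below the filter on low counts and was not tested. With cells of each kind matched in number within line and cluster, which leaves fewer cells, 3 of 1261 genes passed edgeR and 90 had an unadjusted p under 0.05, and DESeq2 on the unmatched cells gave 67 calls.

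Since 1 to 7 neurons per line lacked hdc at 2000 UMIs, the neurons were split instead into those above and those not above the median hdc count of their line, 69 to 166 and 72 to 184 cells. This split was chosen after the counts were seen. Of 2920 genes tested with edgeR, 241 or 8.25% passed, 78 (2.67%) higher and 163 (5.58%) lower in neurons above the median. In the fresh library 91.0% of the higher and 93.9% of the lower genes had the same sign, against 65.4% of those that did not pass. Both splits use the same neurons, so their values are set side by side and not taken as independent.

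Of the 8 named genes that rose most with hdc, 4 encode transcription factors, namely pros, chinmo, dati and D. The gene pros averaged 26520 ± 5562 CPM in neurons above the median and 15654 ± 2975 CPM in neurons not above it (SD, n = 7 lines), a log2 difference of 0.77 (SE 0.09, edgeR adjusted p = 4.1e-10). In the nerfin-1 split pros had fallen. The BTB zinc finger gene chinmo, which marks neurons born early, averaged 2342 ± 243 CPM above and 1500.3 ± 154 CPM not above, a log2 difference of 0.66 (SE 0.03, edgeR adjusted p = 4.1e-10). Its rise lay between 0.52 and 0.73 in the 7 lines. CR43283 averaged 4516 ± 1694 CPM above and 1916 ± 619 CPM not above, a log2 difference of 1.22 (SE 0.26, edgeR adjusted p = 1e-06). The zinc finger gene dati averaged 827 ± 78.0 CPM above and 408 ± 124 CPM not above. The other named rises were those of the Sox gene D, the mitochondrial aspartyl-tRNA synthetase gene AspRS-m, of the dystrophin gene Dys and the chromatin gene e(y)3, with log2 differences of 0.73 to 1.11.

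Of the 8 named genes that fell most, 3 encode enzymes of glycolysis. The phosphoglycerate mutase gene Pglym78 averaged 39.1 ± 22.0 CPM in neurons above the median and 237 ± 189 CPM in neurons not above it, a log2 difference of -2.48 (SE 0.25, edgeR adjusted p = 1.6e-09). The aldolase gene Ald averaged 271 ± 88.7 CPM above and 837 ± 656 CPM not above, and the glucose phosphate isomerase gene Pgi 40.4 ± 14.4 CPM above and 108 ± 44.4 CPM not above. The splicing factor gene ps averaged 25.4 ± 19.4 CPM above and 126 ± 67.6 CPM not above. The microtubule gene futsch, the relative of mammalian MAP1B, averaged 360 ± 104 CPM above and 894 ± 343 CPM not above. CG4577, jdp and Oatp74D, which encodes a transporter, had log2 differences of -1.72, -1.52 and -1.38. In the nerfin-1 split Ald fell as well, by 0.62 (edgeR adjusted p = 0.00011), while Pglym78, Pgi, ps, jdp and futsch did not pass there. Of the 16 genes named for hdc, 8 could be tested in other neurons only, where CR43283, dati, pros, chinmo and futsch passed and Ald, AspRS-m and Dys did not. With cells matched on line and cluster 7 could be tested, and CR43283, chinmo and Pglym78 passed.

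**Figure D5:**
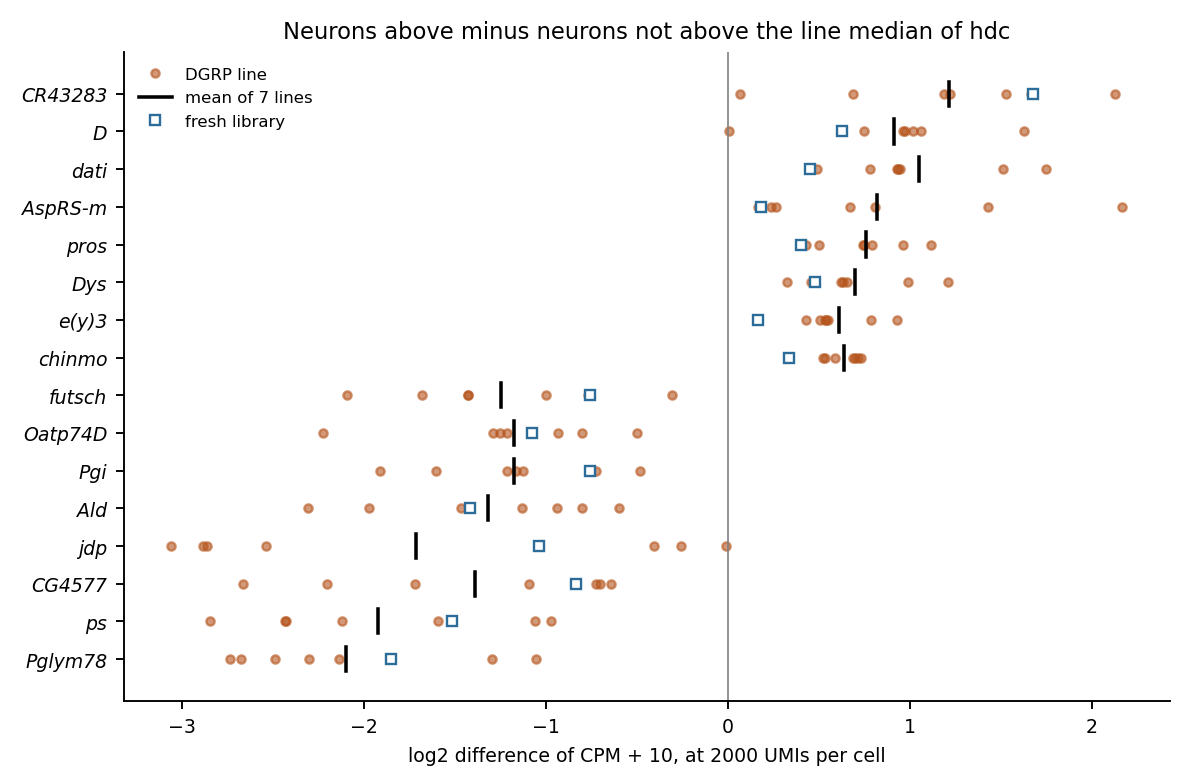
Log2 difference of CPM + 10 between neurons above and neurons not above the median hdc count of their line at 2000 UMIs per cell on the x axis, for the 8 named genes that rose above the 8 that fell on the y axis; dots are the 7 DGRP lines, bars their mean and open squares the fresh library. The lines of chinmo lie close together between 0.52 and 0.73, whereas those of Pglym78 spread between -2.74 and -1.06.

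Over all 2920 genes tested, 2.67% rose and 5.58% fell with hdc. By list, 5 of 12 immature neuron genes rose with hdc and 0 fell, with a median log2 difference of 0.18, against -0.001 over all 2920 genes. They were pros, chinmo, jim, Nrt and fne, an RNA-binding protein related to elav. Of 21 genes of the mature neuron and synapse list, 0 rose and 11 fell, with a median of -0.35. These were the SNARE genes nSyb and Syx1A, the vesicle genes cpx, Syn and Sytbeta, IA-2, CaMKII, the transmitter genes VAChT and Gad1, the sodium channel gene para and the GABA receptor gene Rdl. Rdl averaged 265 ± 57.5 CPM above and 579 ± 175 CPM not above. The split neurons included the mature-like clusters, which were set apart by 6 genes of this list. Those clusters had less hdc than other neurons, at 3396 against 6653 CPM in the MeOH library. In other neurons only, 44 of 2566 genes passed with hdc, and 17 of 1932 with cells matched on line and cluster. The list was counted in neither setting, so the part of the cluster mix in these falls was not tested. The neuroblast list had 1 tested gene, brat, which encodes a translational repressor and rose by 0.32 (SE 0.05, edgeR adjusted p = 1.3e-05).

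For the remaining lists the shares of all genes were again 2.67% higher and 5.58% lower, and no list was tested against them. Of 16 tested genes of the TOR, insulin, FOXO and 4E list, 1 passed. It was eIF4EHP, which encodes a relative of eIF4E that competes for the cap, and it averaged 117 ± 14.9 CPM above and 173 ± 50.1 CPM not above, a fall of 0.55 on the log2 scale (SE 0.14, edgeR adjusted p = 0.013). None of 3 headcase partners passed. Of 5 genes reported to depend on nerfin-1 in the embryo, Galphao, a G protein subunit, and futsch fell. VAChT and Gad1 were the 2 of 4 transmitter identity genes that fell, Hsp23 fell as 1 of 9 heat shock genes, and Dscam2 and Toll-6 fell among 17 genes of axon growth and guidance. No gene passed among 4 of the cell cycle, 3 of the Notch pathway and 1 each of the mushroom body and lamina lists, while pros was the only tested gene of the GMC list. The glia, hemocyte, fat body and muscle lists again had no tested gene. The 12 glial genes summed to 73.1 to 173 CPM above and 90.6 to 182 CPM not above.

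The gene nerfin-1 itself did not pass in the hdc split. It averaged 147 ± 44.7 CPM in neurons above the median and 140 ± 42.1 CPM in neurons not above it, a log2 difference of 0.11 (SE 0.14, edgeR adjusted p = 0.75), positive in 3 of 7 lines, and 0.31 in the fresh library. Among other neurons alone, without the mature-like clusters, 44 of 2566 genes passed with hdc, and with cells matched on line and cluster 17 of 1932 passed. Without DGRP-502 there were 145 calls and without DGRP-761 there were 147.

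For Thor no such test could be made at 2000 UMIs, where 1 to 8 neurons per line had a UMI. With all UMIs, 3 lines had 11 or 12 neurons with Thor, and 3 of 4404 genes passed edgeR, 5 passed DESeq2 and 231 had an unadjusted p under 0.05. These genes are not named because this comparison does not hold depth equal.

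Across 37 annotation values with at least 20 cells in the libraries together, log2(CPM + 10) of each gene was compared with that of 6827 genes. These correlations share libraries, depth and clustering and are given as a description. Closest to nerfin-1 were CG3163 with a Pearson r of 0.80, the transcription factor gene ewg with 0.79, the splicing factor gene Spf45 with 0.74, CG32202 with 0.73, and the RNA-binding protein genes elav and Rox8 with 0.73 each. For CG3163 the r was 0.46 in the MeOH and 0.77 in the fresh library alone. Closest to hdc were brat with 0.92, nocte and pod1 with 0.89 each, CG17977 and the topoisomerase gene Top1 with 0.89 each and the adaptor gene dock with 0.88. The r of brat was 0.91 in each library. Thor had its highest r of 0.71 with CG11851, now called Alg9, which was 0.33 in each library alone, and in counts as sparse as these that is not a finding. Among the trio, r was 0.42 between nerfin-1 and hdc, 0.23 between hdc and Thor and 0.11 between nerfin-1 and Thor.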

How the data were processed

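Single-cell libraries of larval brain were made by 10x 3 prime chemistry, per the labels, and the submitters' processing notes name Cell Ranger, Seurat and dm6, with versions not given in the sources used here. The deposited matrices hold counts, UMIs per gene and barcode. The deposited table of cells gives clusters, names and lines for 2715 of 3907 MeOH and 2341 of 2417 fresh barcodes. It also holds, as deposited, mitochondrial UMIs as a percent of all UMIs. Line and member counts were the same in the demultiplexed matrix for all 2715 MeOH cells.

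A numbered cluster was called neuronal when at least 3 of 11 markers reached 2 times their level in non-neuronal cells, and mature-like when at least 4 of 6 reached 1.5 times their level in neurons. Clusters 1 and 31 were left unnamed although they met the rule, a choice made after seeing the data. Doublets were not called. Counts were summed per class, with exact Poisson and Clopper-Pearson 95% intervals that cover counting error only. In the splits, cells were thinned at random to 2000 UMIs, the splitting gene was removed, and lines needed at least 10 cells on each side. The planned hdc and Thor tests could not be fitted, as the report states.

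Tests used edgeR 4.0.16 (R 4.3.3) with its filter on low counts, TMM and the line as block. DESeq2 1.42.0 was an alternative. Log2 levels use CPM + 10. In simulated data edgeR called 91.0% of genes changed by log2 1 and 35.9% of those changed by log2 0.5 in the nerfin-1 split (2431 genes), and 97.8% and 35.5% in the hdc split (2966 genes). It called 0.178% and 0.18% of unchanged genes. The 8 genes named per direction had the largest changes among genes that passed with the same sign in all 7 lines and in the fresh library. The members, the lists and the rule were chosen with earlier results of these data known. Gene names and positions come from the Ensembl and RefSeq annotation.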

Additional observations from a re-analysis of the deposited data

Results flagged for a closer look

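Values of the 7 lines were compared with Dixon's criterion, under which the gap of the highest or lowest value to its neighbour, divided by the range, must exceed the critical value at the 95% level. Of 57 sets of lines, 8 passed, and chance alone flags about 1 in 20. DGRP-502 stood above the other lines in nerfin-1, at 251 CPM in other neurons and 280 CPM over all cells. Of its 384 cells, 134 were in the unnamed cluster 1, against 14 to 110 cells of that cluster in the other lines. The part of cluster 1 in the value over all cells was not tested. DGRP-45 stood out in hdc at 6747 CPM in mature-like neurons, from 10 cells. For Thor, DGRP-409 stood out at 12.9 CPM in GMC and 12.4 CPM in neuroblasts, and DGRP-382 was lowest at 2.46 CPM in other neurons, all from a few UMIs. In the nerfin-1 split, hbn in DGRP-409 had a log2 difference of 3.12 and Snap25 in DGRP-382 had -2.79.

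Barcodes that the deposited table of cells leaves out also carried these transcripts. The 1192 such MeOH barcodes had 248 CPM of nerfin-1, 4708 CPM of hdc and 10.8 CPM of Thor at a median of 3094 UMIs. The 76 such fresh barcodes had 45.1 CPM of nerfin-1, 1239 CPM of hdc and 4.31 CPM of Thor at a median of 40565 UMIs. None of them has a deposited cell type, so they entered no comparison.

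Dscam2, a cell adhesion gene, moved the other way in the fresh library. In the hdc split its log2 difference was negative in all 7 MeOH lines, at -0.38 in the fit, and 0.0717 in the fresh library. This difference between the libraries was not tested.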

How the results depend on the processing

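The counts of genes changed with the settings more than the levels did. For nerfin-1, 74 higher and 94 lower genes became 33 and 16 at 3300 UMIs per cell, 121 and 157 without thinning, 1 and 2 with cells matched on line and cluster, and 33 and 34 under DESeq2. Without the filter on low counts 181 were lower. For hdc, 78 higher and 163 lower genes became 23 and 21 in other neurons only, 184 and 309 without thinning, 9 and 8 with matched cells, and 18 and 44 under DESeq2. Matching and the depth of 3300 UMIs leave fewer cells, and matching also makes the cluster mix equal on either side. What caused any of these changes in the counts was not tested. Of the nerfin-1 calls, 115 of 168 were made again with another seed of thinning, and 149 of 241 of the hdc calls. Leaving out each line in turn gave 53 to 73 higher and 65 to 84 lower genes for nerfin-1, and 52 to 92 higher and 92 to 184 lower genes for hdc, with 92 lower without DGRP-502 and 95 without DGRP-761. No paired analysis was possible between the libraries because each group is 1 library; within the MeOH library the line was the block, and with no replicate block the counts were 39 and 33 for nerfin-1 and 21 and 68 for hdc.

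Defining neurons as cells with an elav or nSyb UMI and no repo UMI gave 196 CPM of nerfin-1 and 5163 CPM of hdc in the MeOH library, and 113 and 2921 CPM in the fresh library. The mean over cells of their own CPM gave 94.4 CPM of nerfin-1 and 3749 CPM of hdc in fresh neurons. The mean of hdc over lines was 6643 CPM in other neurons only. Without the cell with the most Thor UMIs, the log2 ratio of MeOH over fresh for Thor in neuroblasts was 0.26 in place of -0.75. Another 128 values of the main results, under these and the remaining settings, stayed within 1.5 times for counts of genes or within the replicate spread or counting interval for levels. The settings planned for the Thor split were not run, apart from the use of all UMIs. Thor is limited by depth, and nerfin-1 in small classes.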
